A study of Mus musculus with 2 samples.

Results

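The genes described here are 35 genes of the ATF4 stress programme and of the unfolded protein response. They were taken as a fixed list of symbols, chosen with earlier results of these data known. All 35 were among the 24015 genes of the expression table. They fall into 20 genes of an amino acid arm attributed to the transcription factor ATF4, 12 genes of an endoplasmic reticulum (ER) chaperone arm attributed to ATF6 and XBP1, and 3 ER stress sensors kept apart from both arms. The cells were mouse embryonic fibroblasts (MEFs), connective tissue cells grown from embryos, cultured in DMEM with 10% fetal bovine serum and antibiotics. One culture is labelled Adar2+/+ (Adar2-WT) and the other Adar2-/- (Adar2-KO), Adar2 being an RNA editing enzyme that turns adenosine into inosine and has the gene symbol Adarb1. Each genotype has 1 library, of poly(A)+ RNA by the design text although the molecule label says total RNA, so the spread between cultures is unknown and genotype cannot be told apart from anything else that differed between the 2 cultures or their library kits (TruSeq or Nextera in the labels). In bulk RNA, fewer cells that express a gene and less RNA per cell cannot be told apart either.

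Cells under stress lower translation by phosphorylating the initiation factor eIF2, and this raises translation of ATF4 mRNA through upstream reading frames. ATF4 then switches on genes for amino acid uptake, amino acid synthesis and tRNA charging, so the arm responds to amino acid shortage as well as to ER stress. Misfolded protein in the ER is sensed by PERK, IRE1 and ATF6. IRE1 splices Xbp1 mRNA, ATF6 is released by proteolysis, and both factors switch on chaperones, disulfide isomerases and degradation genes of the ER. Fibroblasts secrete much collagen and need this folding machinery. Translation of Atf4, splicing of Xbp1 and cleavage of ATF6 are not seen in gene-level RNA values.

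The libraries had 9446911 reads (WT-labelled) and 9546996 reads (KO-labelled) behind their RPKM values (reads relative to gene length and library total). Adarb1 itself was not lower in the KO-labelled library, with 18.4 RPKM under the WT label and 25.8 RPKM under the KO label (1155 and 1633 reads). The labels do not name the deleted part, and a whole-gene value does not check it. The lists of edited sites held 654 sites for the WT-labelled and 110 for the KO-labelled library. The libraries are named by their labels, and every direction rests on those labels. Of the 14 listed fibroblast markers, Col1a1 (50.0 and 57.1 RPKM), Vim (82.7 and 81.0 RPKM) and Fn1 (96.2 and 97.9 RPKM) were among those high in both, WT-labelled first. Other fibroblast markers differed in both directions. Thy1 had 9.40 and 72.1 RPKM and Postn 21.9 and 41.2 RPKM, while Dcn had 29.7 and 12.3 RPKM, Lum 19.1 and 11.3 RPKM, Pdgfra 40.6 and 29.2 RPKM and Pdgfrb 47.7 and 35.4 RPKM. Of 13 compared fibroblast markers, 7 were lower and 6 higher in the KO-labelled library, and Fap did not reach 1 RPKM in either library. The whole list of 14 genes summed to 609.0 and 646.7 RPKM, and without Thy1 to 599.6 and 574.5 RPKM. Markers of other cell types differed in several lists. Krt19 had 59.4 and 18.8 RPKM, Col2a1 48.0 and 0.571 RPKM, Sox2 24.2 and 0.171 RPKM and Cebpa 18.5 and 3.53 RPKM, whereas Nes had 14.3 and 38.4 RPKM. Epcam, Ptprc, Cdh5 and Myod1 had at most 0.159 RPKM in either library, but Cd14 had 19.7 and 23.7 RPKM and Fabp4 39.6 and 42.5 RPKM. Among markers that reached 1 RPKM, those lower in the KO-labelled library were 2 of 3 epithelial, 1 of 3 leukocyte and 1 of 1 endothelial. They were also 3 of 4 chondrocyte, 3 of 4 neural and 2 of 3 adipocyte markers. Whole lists summed to 61.5 and 19.96 RPKM for 6 epithelial, 26.9 and 31.3 RPKM for 6 leukocyte, 3.998 and 0.409 RPKM for 5 endothelial, 0.836 and 0.342 RPKM for 5 muscle, 68.2 and 17.8 RPKM for 5 chondrocyte, 91.3 and 70.1 RPKM for 5 neural and 62.8 and 47.2 RPKM for 5 adipocyte markers. The part of these markers in the results below was not tested.

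The arms of the stress response lay on opposite sides. All 20 genes of the ATF4 arm had the higher level in the KO-labelled library, while 10 of the 12 genes of the ER arm had the lower level there (7 of 12 by the log2 fold change in the authors' deposited table, which is scaled differently). The difference was small for most genes, and none of the 35 reached 2-fold. Of the 13867 genes that reached 1 RPKM in either library, 4.42% passed 2-fold toward the KO-labelled library and 7.46% toward the WT-labelled library. At 1.5-fold, 5 of the 35 were higher and 0 lower, against 8.99% and 12.0% of all genes. These counts use the log2 ratio, log2((KO + 1)/(WT + 1)) of the RPKM values, and fold changes given for single genes are plain ratios of RPKM. The shares of all genes include weakly expressed genes, whereas every member reached 10 RPKM. From the 10th to the 90th percentile, log2 ratios ran from -0.74 to 0.53 over genes of at least 1 RPKM. Over genes of at least 10 RPKM they ran from -0.42 to 0.41.

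The median log2 ratio was 0.22 over the ATF4 arm and -0.08 over the ER arm, a difference of -0.30 between the arms. Over all genes that reached 10 RPKM in either library, as every member did, the median was 0.01 and the quartiles were -0.15 and 0.19. In that set of 10375 genes, 52.4% were higher in the KO-labelled library at any size. Counting error was described by an exact 95% interval for each gene's log2 reads ratio (reads over library total). An interval could be computed for 10088 of the 10375 genes, every member included. It lay above 0 for 17 of the 20 ATF4-arm genes and for 29.2% of the 10088 genes. It lay below 0 for 6 of the 12 ER-arm genes and for 25.6% of the 10088 genes. The intervals take each read as an independent draw and hold nothing of the variation between cultures.

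**Figure D1:**
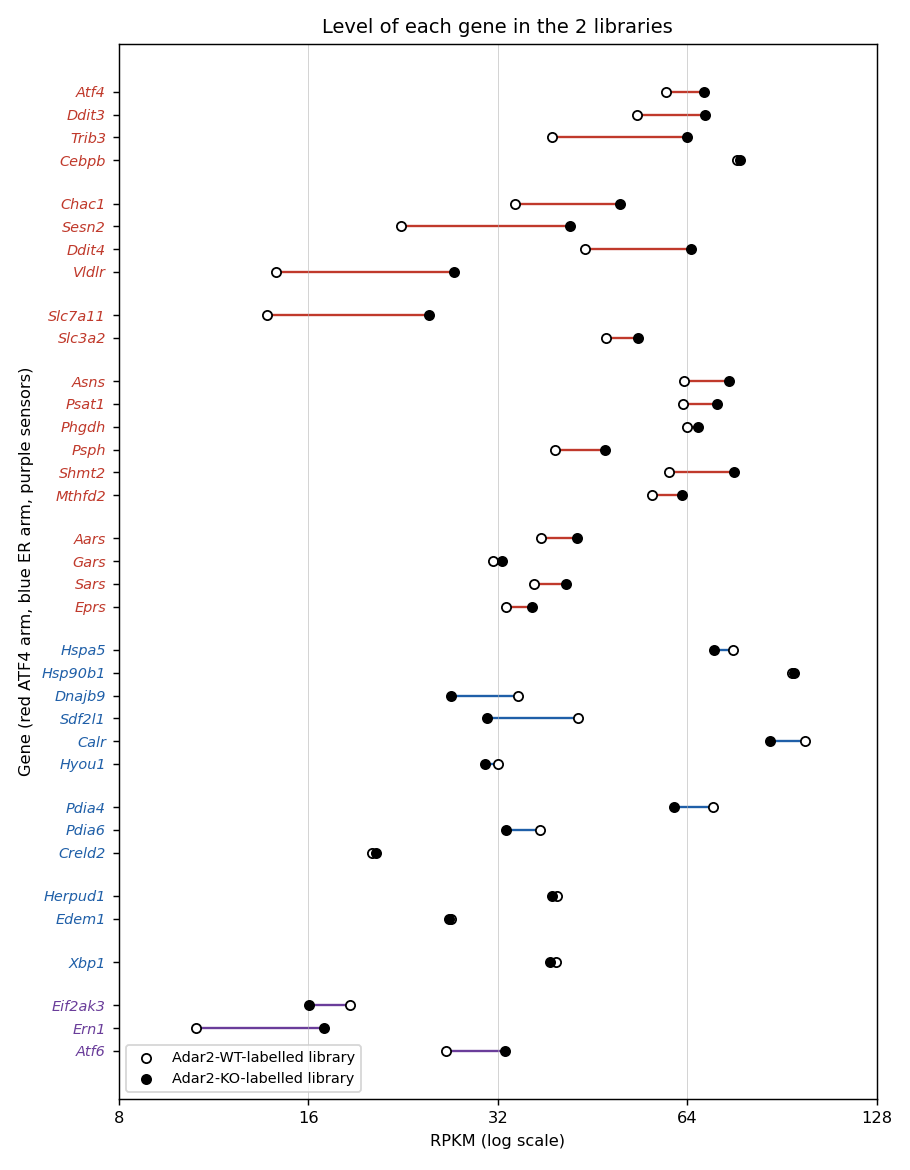
Level of each of the 35 genes in RPKM (log scale) in the WT-labelled library (open circle) and the KO-labelled library (filled circle), with genes grouped by role and the line coloured by arm. In all 20 ATF4-arm genes the filled circle lies to the right of the open one, and in 10 of 12 ER-arm genes it lies to the left.

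The genes of the arms also differ in the elements in their promoters. The arms are attributed to factors that bind such elements, so this difference is not independent of how the genes were grouped. RefSeq promoter windows (GRCm38.p6, 250 bases before to 50 bases after each start, 300 bases in all) were found for 33 of the 35 genes, Hyou1 and Atf6 having no entry. The ER stress element, bound by ATF6 with NF-Y, was searched on both strands as CCAAT followed by any 9 bases and CCACG. It was found in 5 of the 11 ER-arm genes with a window, in 0 of the 20 ATF4-arm genes and in 0.119% of all 32851 windows. A shorter second form, ATTGG, any base and CCACG, was found in Herpud1 alone among the members and in 0.0365% of all windows. The C/EBP-ATF element, bound by ATF4 with C/EBP partners, was searched as TGATGNAA. It was found in 7 of the 20 ATF4-arm genes, in 1 ER-arm gene (Herpud1) and in 3.97% of all windows. The XBP1-type element TGACGTGG was in no member's window and in 0.676% of all windows. Only these letters were searched for it, so the result does not show that members lack a site for XBP1. No 2 of these matches in members overlap each other. A match is a description of the letters and not evidence of binding, and no match says only that the letters are not in the window.

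The ER stress elements are shown because they were found in genes of the ER arm and in none of the ATF4 arm. Each is written 5′ to 3′ on the strand that holds the match, in lower case, with the matched element in capitals.
Hspa5 (chr2:34772020-34772048, plus strand): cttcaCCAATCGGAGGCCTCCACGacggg
Hsp90b1, first match (chr10:86705633-86705661, minus strand): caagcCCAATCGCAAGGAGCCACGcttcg
Hsp90b1, second match (chr10:86705528-86705556, plus strand): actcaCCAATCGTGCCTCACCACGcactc
Calr (chr8:84847070-84847098, plus strand): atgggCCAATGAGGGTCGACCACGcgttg
Pdia6 (chr12:17266486-17266514, plus strand): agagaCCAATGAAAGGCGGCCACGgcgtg
Creld2 (chr15:88819515-88819543, minus strand): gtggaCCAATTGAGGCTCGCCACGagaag
Herpud1, second form (chr8:94386368-94386396, plus strand): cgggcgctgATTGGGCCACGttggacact

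The C/EBP-ATF elements are shown because they mark genes of the arm that was higher in the KO-labelled library, with the element in capitals. For 6 of the 7 genes 1 match each is shown. Slc7a11 has a second match, at positions -47 to -40 from the annotated start, that is not shown.
Trib3 (chr2:152344029-152344056, plus strand): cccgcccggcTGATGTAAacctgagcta
Chac1 (chr2:119351039-119351066, minus strand): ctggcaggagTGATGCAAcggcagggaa
Vldlr, in 1 of its 2 windows (chr19:27216810-27216837, minus strand): ctaggagcgcTGATGCAActattgctgc
Slc7a11 (chr3:50443662-50443689, minus strand): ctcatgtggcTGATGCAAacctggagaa
Asns (chr6:7693215-7693242, minus strand): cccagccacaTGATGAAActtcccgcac
Gars (chr6:55037961-55037988, minus strand): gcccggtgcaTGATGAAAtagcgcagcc

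The element in Hspa5 spans positions -65 to -47 from the annotated start, and the match shown for Slc7a11 positions -66 to -59. In the ATF4 arm the 7 genes with the element had a median log2 ratio of 0.54 (range 0.05 to 0.89) and the 13 without it 0.17 (range 0.02 to 0.86). The 2 ranges overlap almost entirely. In the ER arm the 6 genes with an ER stress element of either form had a median of -0.06 (range -0.18 to 0.02) and the 5 without it -0.20 (range -0.47 to -0.01). These ranges overlap as well. The lowest genes of the ER arm, Sdf2l1 (-0.47) and Dnajb9 (-0.34), had no such element. Hsp90b1 and Creld2, the genes of that arm that were higher in the KO-labelled library, had one.

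Among the transcriptional regulators of the ATF4 arm, Atf4 itself, the factor that drives the arm, had 59.2 RPKM from 967 WT-labelled reads and 68.1 RPKM from 1124 KO-labelled reads; in what follows the WT-labelled value always comes first. The fold was 1.15, with an interval of the log2 reads ratio of 0.08 to 0.33. Ddit3, which encodes CHOP, a factor linked to cell death after prolonged stress, had 53.2 and 68.3 RPKM, a fold of 1.28 (interval 0.18 to 0.54). Trib3, a pseudokinase induced by ATF4 and CHOP that dampens their activity, had the largest difference of the regulators. Its level was 39.1 RPKM (757 reads) against 63.9 RPKM (1251 reads), a fold of 1.64 (interval 0.58 to 0.84). Cebpb, a partner of ATF4 on C/EBP-ATF elements, had 76.6 and 77.6 RPKM, a difference within counting error (interval -0.10 to 0.14). Levels of Atf4, Ddit3 and Trib3 lay between 63.9 and 68.3 RPKM in the KO-labelled library, whereas in the WT-labelled library they ranged from 39.1 to 59.2 RPKM. Cebpb, the other regulator, lay above these ranges in both libraries (76.6 and 77.6 RPKM).

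Genes that act as stress outputs of ATF4 had the highest median log2 ratio of the arm's groups (0.70), and all 4 intervals lay above 0. Vldlr, a lipoprotein receptor gene induced through PERK and ATF4, had 14.2 and 27.3 RPKM (1118 and 2166 reads). Its fold of 1.92 (interval 0.83 to 1.04) was the largest among the 35 genes. Sesn2, which encodes the leucine sensor Sestrin 2 that restrains mTORC1, had 22.5 and 41.7 RPKM, a fold of 1.85 (interval 0.74 to 1.04). Ddit4, encoding REDD1, another inhibitor of mTORC1, had 44.0 and 64.8 RPKM, a fold of 1.47 (interval 0.42 to 0.70). Chac1, which degrades glutathione, had 34.1 and 50.0 RPKM, a fold of 1.46 (interval 0.39 to 0.72). The intervals of Vldlr and Sesn2 lie above those of Ddit4 and Chac1, and within each of these pairs the intervals overlap.

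The 2 transporter genes encode the paired chains of system xc-, which imports cystine in exchange for glutamate. Slc7a11, the light chain xCT that carries cystine, had 13.8 and 24.9 RPKM (1199 and 2190 reads). The fold was 1.81 (interval 0.75 to 0.96). Slc3a2, the heavy chain CD98 that is shared with several other amino acid transporters, had 47.5 and 53.5 RPKM, a fold of 1.13 (interval 0.06 to 0.28). The intervals of the 2 chains do not overlap. Slc3a2 was the more abundant per length in both libraries, and the ratio between the chains was smaller in the KO-labelled library.

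Genes of amino acid and one-carbon synthesis were abundant and close between the libraries. In the WT-labelled library the 6 genes lay between 39.4 and 63.9 RPKM, and in the KO-labelled library between 47.4 and 75.9 RPKM. Shmt2, which makes mitochondrial glycine and one-carbon units from serine, differed most, with 59.9 and 75.9 RPKM (fold 1.27, interval 0.24 to 0.45). Psph, the last enzyme of serine synthesis, had 39.4 and 47.4 RPKM (fold 1.20, interval 0.11 to 0.43). Asns, asparagine synthetase and a classic ATF4 target, had 63.2 and 74.5 RPKM (fold 1.18, interval 0.12 to 0.35). Psat1, the middle enzyme of serine synthesis, had 63.1 and 71.3 RPKM (fold 1.13, interval 0.07 to 0.28), and Mthfd2, a mitochondrial folate enzyme, had 56.1 and 62.7 RPKM (fold 1.12, interval 0.04 to 0.28). Phgdh, the first enzyme of serine synthesis, had 63.9 and 66.6 RPKM, within counting error (interval -0.06 to 0.18). Intervals of the 3 serine synthesis genes overlap one another.

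The 4 aminoacyl-tRNA synthetases, which load tRNAs with their amino acids, had the lowest median of the arm's groups (0.15). Aars (alanine) had 37.5 and 42.7 RPKM, a fold of 1.14 (interval 0.08 to 0.29). Sars (serine) had 36.6 and 41.0 RPKM, a fold of 1.12 (interval 0.06 to 0.28). Eprs, the fused glutamate and proline enzyme, had 32.9 and 36.2 RPKM, a fold of 1.10 (interval 0.04 to 0.24). Gars (glycine) had 31.4 and 32.5 RPKM, within counting error (interval -0.10 to 0.20). All 4 intervals overlap, so no order among these genes stands out.

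**Figure D2:**
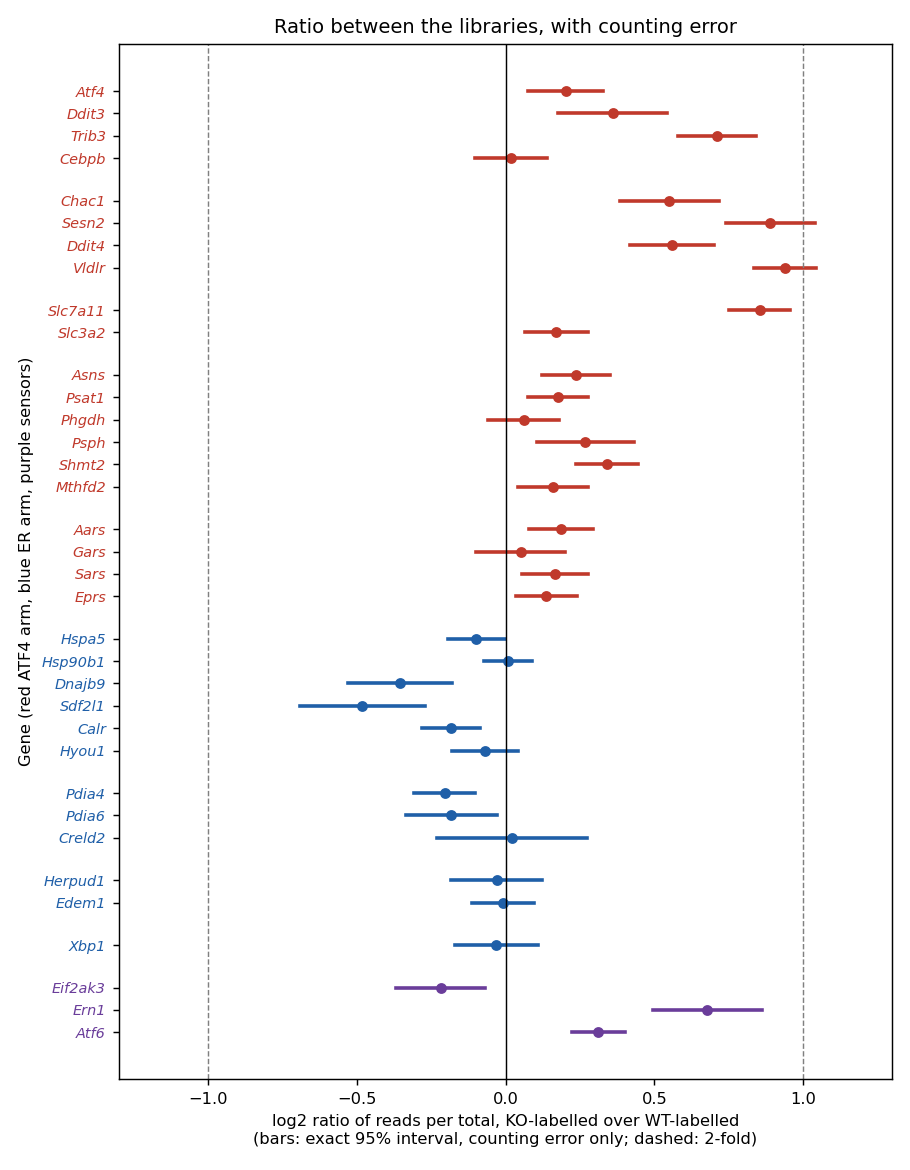
Log2 reads ratio, each scaled to its total (KO-labelled over WT-labelled), for each of the 35 genes, with bars for the exact 95% interval of counting error and dashed lines at 2-fold. Vldlr, Slc7a11, Sesn2 and Trib3 lie farthest to the right, and Sdf2l1 and Dnajb9 farthest to the left.

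In the ER arm, the KO-labelled library had the lower level of 5 of 6 chaperone genes, with 4 of the 6 intervals below 0. Sdf2l1, an ER-resident factor that works with BiP, differed most. Its level was 42.9 and 30.7 RPKM (449 and 325 reads), a ratio of 0.716 (interval -0.69 to -0.27). Dnajb9, the BiP co-chaperone ERdj4 that restrains IRE1, had 34.5 and 27.0 RPKM, a ratio of 0.782 (interval -0.53 to -0.18). Calr, calreticulin, a lectin chaperone of glycoproteins, had 98.3 and 86.6 RPKM, a ratio of 0.881 (interval -0.28 to -0.08).

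The main ER chaperone, BiP, encoded by Hspa5, differed little. Hspa5 had 75.6 RPKM (1869 reads) and 70.7 RPKM (1765 reads), a ratio of 0.934 whose interval only just lay below 0 (-0.19 to -0.0032). Hsp90b1, which encodes the ER form of HSP90, had 93.9 and 94.4 RPKM, and Hyou1, a nucleotide exchange factor of BiP, had 32.0 and 30.5 RPKM. Both differences were within counting error (intervals -0.07 to 0.09 and -0.18 to 0.04).

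Of the 3 disulfide isomerase genes, 2 were lower as well. Pdia4 (ERp72) had 70.2 and 60.9 RPKM, a ratio of 0.868 (interval -0.31 to -0.10). Pdia6, another isomerase, had 37.4 and 32.9 RPKM, a ratio of 0.881 (interval -0.33 to -0.03). Creld2, an ER stress-induced isomerase-like protein, had 20.2 and 20.5 RPKM, with an interval of -0.23 to 0.28 on its 260 and 267 reads.

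ER degradation genes and Xbp1 had nearly the same level in both libraries. Herpud1, which organises the degradation complex of the ER membrane, had 39.8 and 39.0 RPKM (interval -0.18 to 0.12). Edem1, which routes misfolded glycoproteins to degradation, had 26.9 and 26.7 RPKM (interval -0.11 to 0.10). Xbp1, whose mRNA is spliced by IRE1, had 39.6 and 38.8 RPKM (interval -0.17 to 0.11). For these 3 genes the sign is negative on the RPKM scale and positive on the scale of the authors' deposited log2 fold change (0.02, 0.04 and 0.02).

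The 3 sensors did not share a direction. Ern1, which encodes IRE1 alpha, had 10.6 and 16.9 RPKM (398 and 643 reads), a fold of 1.60 (interval 0.49 to 0.86). Atf6 had 26.5 and 32.8 RPKM, a fold of 1.24 (interval 0.22 to 0.40). Eif2ak3, which encodes PERK, the kinase that feeds ER stress into ATF4, had 18.6 and 16.0 RPKM, a ratio of 0.860 (interval -0.37 to -0.07). Ern1 was the 1 gene outside the ATF4 arm to pass 1.5-fold. Splicing activity of IRE1 was not measured.

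Set against each other, the arms barely overlapped. The lowest log2 ratio of the ATF4 arm was that of Cebpb (0.018), and the only ER-arm gene above it was Creld2 (0.022). Summed over genes, the ATF4 arm had 888.3 and 1091 RPKM and the ER arm 611.2 and 558.8 RPKM. The ratio of the summed arms was 1.45 in the WT-labelled and 1.95 in the KO-labelled library, a comparison within each library that does not depend on how the libraries were scaled. In the authors' deposited table, the GFOLD value, a fold change drawn toward 0 by counting error, was above 0 for 17 ATF4-arm genes and 0 ER-arm genes, against 32.0% of all genes of at least 10 RPKM. It was below 0 for 4 ER-arm genes (Sdf2l1, Dnajb9, Pdia4 and Calr) and 0 ATF4-arm genes, against 17.8%.

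**Figure D3:**
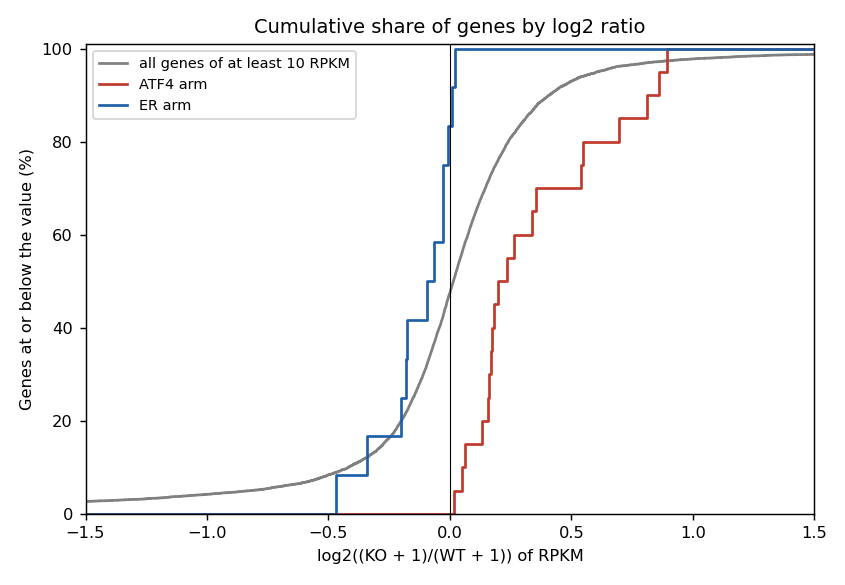
Cumulative share of genes (%) by log2((KO + 1)/(WT + 1)) of RPKM for the 20 ATF4-arm genes, the 12 ER-arm genes and the 10375 genes of at least 10 RPKM in a library. The ATF4 curve lies wholly to the right of 0, and the ER curve has 10 of its 12 steps to the left of 0.

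The values seem to have a ceiling, whose cause was not tested. The highest RPKM of any gene was 107.0 in the WT-labelled and 124.3 in the KO-labelled library. Among genes with recovered reads, the highest reads per base were 0.997 in the WT-labelled and 1.19 in the KO-labelled library. Calr reached 0.928 reads per base and Hsp90b1 0.901 reads per base, in the WT-labelled and KO-labelled library in turn. Among all genes with a mean over 40 RPKM the 10th to 90th percentile of log2 ratios ran from -0.24 to 0.22, narrower than the -0.41 to 0.43 of genes between 10 and 40 RPKM. The 14 ATF4-arm genes over 40 RPKM had a median of 0.22 and the 6 below it 0.49, with Vldlr, Sesn2 and Slc7a11 at 0.81 to 0.89 and the synthetase genes Sars, Eprs and Gars at 0.05 to 0.16. The ER arm had -0.14 over 40 RPKM (4 genes) and -0.05 below it (8 genes). In both ranges the ATF4 median was above and the ER median below that of all genes (-0.02 and 0.03). The part of a ceiling, or of counting error, in the ratios of abundant members was not tested.

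**Figure D4:**
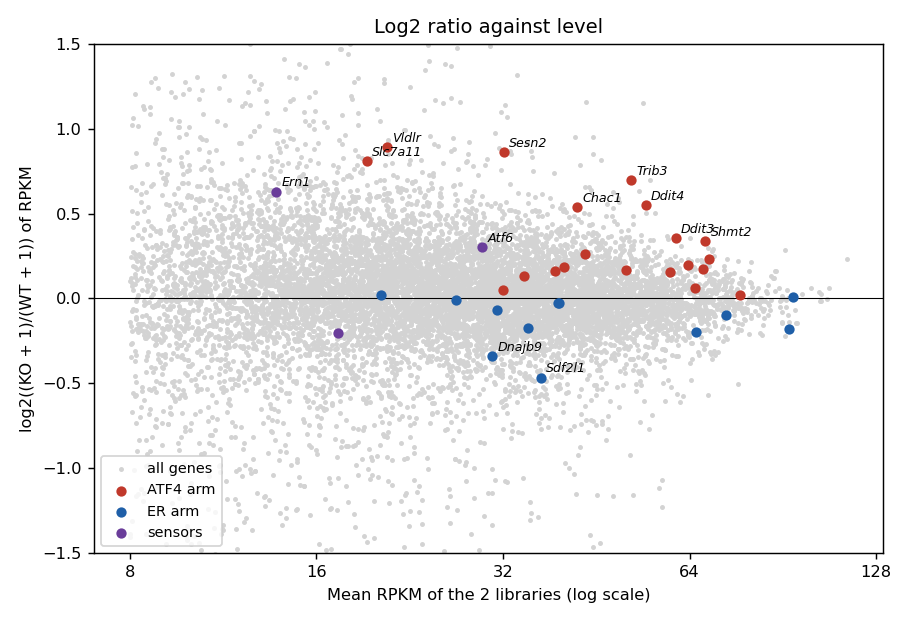
Log2((KO + 1)/(WT + 1)) of RPKM against the mean RPKM of the 2 libraries (log scale), with all genes of a mean of at least 8 RPKM in grey and members coloured by arm; genes beyond the vertical axis range are not drawn. The grey cloud narrows toward high levels, and ATF4-arm genes lie above 0 along the whole range.

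Genes of the same pathways that are not members were read from lists drawn from textbook knowledge. These lists were chosen with earlier results of these data known, so they are no independent check of the arms. Of 30 other targets and regulators of ATF4, 24 were higher in the KO-labelled library and 6 lower, with a median log2 ratio of 0.23. Intervals lay above 0 for 19 and below 0 for 3. Of all genes of at least 10 RPKM, which 26 of the 30 reached, 52.4% were higher in the KO-labelled library. Their intervals lay above 0 for 29.2% and below 0 for 25.6%. At the upper end stood Pycr1, a proline synthesis enzyme (11.0 and 20.2 RPKM), and the glycine transporter gene Slc6a9 (19.9 and 34.4 RPKM). At the lower end of the genes that reached 10 RPKM stood the autophagy gene Map1lc3b (57.5 and 51.3 RPKM) and Cebpg (34.9 and 32.6 RPKM). The ends of the whole list lay below 10 RPKM and were singled out after their values were seen. Fgf21, a hormone gene, had 1.01 and 6.08 RPKM (9 and 55 reads, interval 1.57 to 3.80) and was the 1 gene of the list past 2-fold. Slc7a3, a cationic amino acid transporter gene, had 3.93 and 2.16 RPKM (88 and 49 reads, interval -1.39 to -0.34).

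The other 16 cytosolic tRNA synthetases had a median of 0.14, close to the 0.15 of the 4 members, with 14 higher and 2 lower. The ends were Mars (51.3 and 66.6 RPKM) and Dars (31.6 and 40.7 RPKM), and Hars (53.4 and 48.6 RPKM) and Wars (48.1 and 47.3 RPKM). Intervals lay above 0 for 8 of the 16 and below 0 for 1, against 29.2% and 25.6% of all genes of at least 10 RPKM.

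Among 25 other ER chaperones and folding enzymes, 21 were lower and 4 higher in the KO-labelled library (median -0.10). Fkbp14, a collagen prolyl isomerase (48.7 and 32.9 RPKM), and the secreted stress factor gene Manf (36.1 and 28.8 RPKM) were lowest. Fkbp11 (28.5 and 43.7 RPKM) and the glucosidase gene Ganab (32.8 and 36.2 RPKM) were highest. Of the 22 with an interval, 12 lay below 0 and 2 above it, against 25.6% and 29.2% of all genes of at least 10 RPKM. The 29 other degradation and translocation genes had a median of -0.03, with 18 lower and 11 higher. Of the 26 with an interval, 6 lay above 0 and 4 below it, against the same 29.2% and 25.6%. Their ends were the segregase gene Vcp (63.0 and 43.9 RPKM) and Sec11c (16.4 and 12.5 RPKM), and Derl1 (44.0 and 54.8 RPKM) and Ube2g2 (36.3 and 44.1 RPKM).

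Upstream of ATF4, the eIF2 kinases went separate ways. Eif2ak2, which encodes the double-stranded RNA kinase PKR and is itself induced by interferon, had 53.1 and 33.8 RPKM (interval -0.75 to -0.55). Eif2ak4, the amino acid sensor GCN2, had 7.58 and 10.9 RPKM (interval 0.33 to 0.71), and Eif2ak1, the kinase HRI, had 23.1 and 24.0 RPKM (interval -0.11 to 0.22). The list of 14 eIF2 kinase and eIF2 complex genes had a median of 0.04, with the eIF2 subunit gene Eif2s2 (55.8 and 63.2 RPKM) at its upper and Impact (35.1 and 31.2 RPKM) at its lower end beside the kinases. The 12 compared genes among other sensors and processing factors had a median of 0.04, from Creb3 (27.0 and 21.7 RPKM) and Bak1 (66.4 and 59.0 RPKM) to Mbtps2, a protease that releases ATF6 (19.4 and 27.7 RPKM), and Bbc3 (15.9 and 19.6 RPKM).

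**Figure D5:**
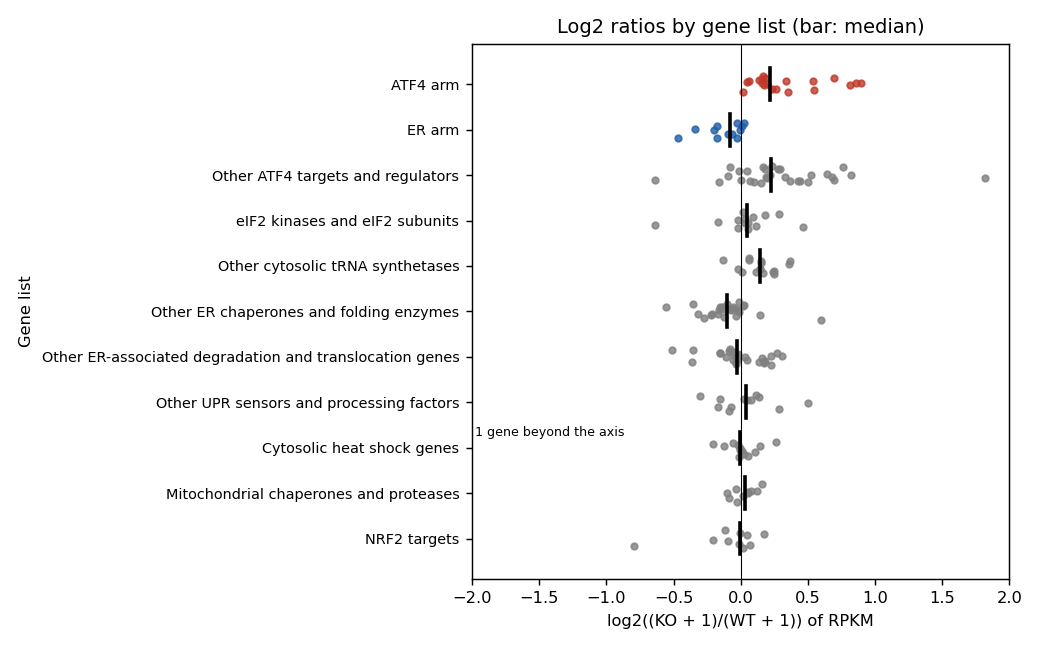
Log2((KO + 1)/(WT + 1)) of RPKM for each compared gene of the 2 arms and of 9 related lists, 1 point per gene, with a bar at each median. Medians of the 2 lists nearest the ATF4 arm (0.23 and 0.14) lie right of 0 and that of other ER chaperones (-0.10) left of 0; 1 heat shock gene lies beyond the axis.

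No edited site was listed in any of the 35 genes in either library. A gene missing from the lists is not thereby shown to be unedited.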

How the data were processed

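Per the submitters' processing notes, STAR 2.4.0d, SAMtools and the build mm9 were used, with no step named. The authors deposited RPKM per gene and library, with a log2 fold change and a GFOLD value, per the file headers; annotation, counting rule and strand are unnamed here (not given in the sources used here). Edited sites were deposited as counts of reads and mismatches and as a fraction, per the file headers.

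Whole reads were recovered from the RPKM values (6 digits) and the deposited log2 fold change, a method tested on simulated data. A single solution was found for 17252 of 17981 genes above 0 (95.9%) and for every member. Log2 ratios used a pseudocount of 1 RPKM and genes reaching 1 RPKM in either library. With 1 library per genotype no test between genotypes was made and no p-value given. Intervals are exact (Clopper-Pearson, conditional on the sum, 95%, scipy 1.17.1) and cover counting error only, with each read taken as an independent draw. PCR copies of a molecule cannot be told from separate molecules, and a possible ceiling on the values was not modelled. The counting error itself may therefore differ from these intervals. Fisher's exact test was planned for edited sites in members, which had none.

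Named are all members, the 2 highest and 2 lowest genes of at least 10 RPKM in each pathway list, and Adarb1. Genes named beside these were chosen after their values were seen. Members and lists were chosen with earlier results of these data known. Promoter sequences are RefSeq's (GRCm38.p6), matched by symbol. The element sequence of 1 gene is not reported here. Alternatives were the pseudocount, filter, scaling, measure, fold and arm membership.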

Additional observations from a re-analysis of the deposited data

How the results depend on the processing

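No filter and a filter of 10 RPKM could not change a member's value, since every member passed 10 RPKM, and centring on the median of all compared genes (0.0053) could not change the difference of arm medians. With a pseudocount of 0.1, that centring, the authors' log2 fold change (added after seeing the data; median over the same genes 0.06) or the sensors placed in the arms, both arm medians and their difference kept their sign. Across these the ATF4 median ran from 0.20 to 0.27 and the ER median from -0.09 to -0.03. By the GFOLD value the difference of arm medians was -0.12, with the ER median at 0. Restricted to members with a mean under 40 RPKM (added after seeing the data), the ATF4 median was 0.49 and the difference -0.53. At 1.5-fold in place of 2-fold, 5 members counted as higher. By the authors' log2 fold change Herpud1 (0.0227), Edem1 (0.0429) and Xbp1 (0.0216) reversed. With 1 library per genotype no library could be left out. Depth limits the least covered members most: Creld2 rested on 260 and 267 reads.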

Other observations

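Other stress programmes stayed close between the libraries as lists. The 14 cytosolic heat shock genes had a median log2 ratio of -0.0040, with Hsf1, the heat shock regulator gene (23.8 and 28.8 RPKM, WT-labelled first), and Hspa4 (55.0 and 60.9 RPKM) at the upper end. Dnajb1 (43.7 and 37.8 RPKM) stood low, and Hspb1, the small heat shock protein gene, stood far below the rest at 13.5 RPKM (115 reads) and 0.232 RPKM (2 reads; exact 95% interval of the log2 reads ratio from -8.92 up to -3.97). The 10 mitochondrial chaperone and protease genes had a median of 0.03, from Afg3l2 (44.1 and 41.0 RPKM) and Htra2 (57.8 and 54.2 RPKM) to Hspd1 (66.3 and 72.0 RPKM) and Clpx (16.0 and 17.9 RPKM).

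The 10 genes of the NRF2 list had a median of -0.0088. The list holds genes that like Slc7a11 respond to oxidative stress, and also Nfe2l2, which encodes NRF2, and its regulator gene Keap1. Nqo1, a quinone reductase gene, had 43.9 and 24.9 RPKM and Gsr, glutathione reductase, 25.2 and 21.8 RPKM. Txnrd1 (30.9 and 34.9 RPKM) and Srxn1 (37.8 and 39.7 RPKM) were at the upper end.

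Editing touched the related lists at 4 listed sites. Ppp1r15b, which encodes a subunit of the phosphatase that reverses eIF2 phosphorylation, had 3 sites in its 3′ untranslated region (chromosome 1, mm9), listed in the WT-labelled library only. They were edited in 25.9% of 58 reads (position 135034121, Wilson 95% interval 16.3 to 38.4), 10.6% of 47 reads (135034138, 4.63 to 22.6) and 56.6% of 53 reads (135034587, 43.3 to 69.0). Its level was 50.0 and 47.3 RPKM. Yars had 1 intronic site in the KO-labelled library (chromosome 4, 128877566; 2 of 6 reads).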
